A study of Rattus norvegicus with 4 samples.

Results

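Elastic fibres give blood vessels, skin and joint capsule their recoil. The 10 genes described here encode parts of such a fibre. Eln encodes its elastin core and Fbn1 the fibrillin-1 of the surrounding microfibrils. Mfap2, Mfap5 and Mfap4 encode glycoproteins attached to those microfibrils. Fbln1, Fbln2 and Fbln5 encode fibulins of the fibre, and Lox and Loxl1 the copper enzymes that cross-link the core. They were chosen by symbol, and each symbol matched 1 of the 17899 rat genes in the deposited table. All 10 stood above the filter on low values (at least 1 TPM in at least 2 libraries) in every library, so none was left out.

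RNA-seq was done on 4 bulk libraries of osteoarthritic rat synovium, the lining of the joint. Human AdMSCs had been injected for the library AdMSC 1 and human SyMSCs for SyMSC 1; these are the labels' short names for mesenchymal stem cells, in common use for those of adipose tissue and of synovium. For PBS 1 and PBS 2 the injection was PBS, a salt buffer. Tissue was collected on the day after cell injection; how osteoarthritis was produced, the strain, sex and age of the rats, the number of animals per library and the interval after PBS are not stated in the labels. The titles tie PBS 1 to AdMSC 1 and PBS 2 to SyMSC 1 by the words Ad and Sy without saying what is shared. The injected cells were human and the table holds rat genes alone; the labels do not say how human reads were kept apart. They do not say either that each library is a separate animal, so the p-values reflect the spread among these 4 libraries, which may be technical. The 2 injected libraries differ in cell source. Where they are joined as 1 arm, their spread and SD therefore include any difference between the sources.

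Values are TPM, a length-normalised share of each library that can be compared between genes but keeps no read depth, so no counting interval can be given. All log2 changes were taken after adding 1 to each TPM value, which damps the change of genes near 0. The synovial lubricant gene Prg4 stood at 4192 TPM in AdMSC 1, 2448 TPM in SyMSC 1, 3930 TPM in PBS 1 and 3765 TPM in PBS 2. Of the cartilage genes, Col2a1 and Matn1 reached at most 2.50 TPM and 0.02 TPM in any library. Acan stood at 15.17 and 6.59 TPM in AdMSC 1 and SyMSC 1, against 47.35 and 25.19 TPM in PBS 1 and PBS 2. Sox9 stood at 2.17 and 1.19 TPM in AdMSC 1 and SyMSC 1, against 6.35 and 3.82 TPM in PBS 1 and PBS 2. The injected libraries held more leukocyte RNA: 7 of 7 leukocyte markers rose, and their summed level was 25018 and 34299 TPM in AdMSC 1 and SyMSC 1, against 9387 and 10632 TPM in PBS 1 and PBS 2. The share of all tested genes called higher in the same comparison (limma adjusted p under 0.05, injected against PBS) was 23.7%. Since TPM are shares of a fixed total, added leukocyte RNA takes from the share of other genes, and in bulk tissue fewer cells of a type and less RNA per cell cannot be told apart. The size of that effect on the elastic fibre genes was not tested.

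An elastic fibre is built in stages. Fibrillin monomers assemble outside the cell into microfibrils, which carry the associated glycoproteins; tropoelastin, the soluble elastin monomer, is laid onto them with the help of fibulin-5, and lysyl oxidases then oxidise its lysines so that the chains join. Elastin is made mainly in development and turns over very slowly in the adult, whereas fibrillin microfibrils also occur without elastin and hold growth factors of the TGF-beta family in the matrix. In joints, fibroblasts and the smooth muscle of vessel walls are the usual sources.

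Cell-injected synovium of either source was first set against PBS-injected synovium. Of the 10 elastic fibre genes 6 fell, 0 rose and 4 did not pass (limma, 2 injected against 2 PBS libraries, Benjamini-Hochberg adjusted p under 0.05 over 13371 genes). The count of genes that fell was 3 without PBS 1 and 3 without PBS 2, with the calls of Eln, Mfap4 and Mfap5 lost each time. At an unadjusted p under 0.05, with all 4 libraries, 7 were lower and 0 higher. Over all tested genes 48.4% were called, 24.7% lower and 23.7% higher. The genes that fell were Mfap2, Mfap4, Eln, Fbln5, Mfap5 and Loxl1; those that did not pass were Fbln2, Fbln1, Fbn1 and Lox. The median log2 change was -1.77 over the 10 genes and 0.00087 over all tested genes. In 8 of the 10 both injected libraries lay below both PBS libraries, which was so for 39.4% of tested genes. The 10 genes summed to 1129 TPM in AdMSC 1 and 626 TPM in SyMSC 1, against 5150.3 TPM in PBS 1 and 5146 TPM in PBS 2.

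**Figure D1:**
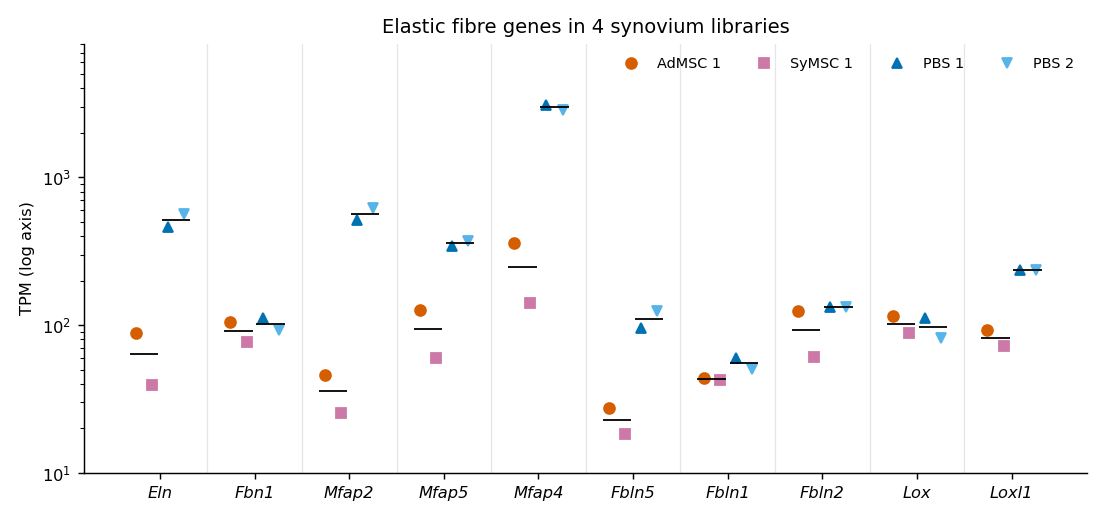
TPM of the 10 elastic fibre genes in each library on a log axis; circles are AdMSC 1, squares SyMSC 1, triangles PBS 1 and PBS 2, and black bars the means of the injected and of the PBS libraries. Mfap4, Mfap2 and Eln show the widest gaps between injected and PBS libraries, while for Lox and Fbn1 the libraries of both arms overlap.

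The core protein gene went down steeply. Eln (gene ID 25043), which encodes tropoelastin, was at 88.1 TPM in AdMSC 1 and 39.1 TPM in SyMSC 1, against 460.4 TPM in PBS 1 and 563 TPM in PBS 2. Both injected libraries lay far below both PBS libraries, and SyMSC 1 was the lowest. The means were 63.6 ± 34.6 TPM after injection and 512 ± 72.7 TPM with PBS (SD, n = 2 each), a ratio of 0.124. The log2 change of -3.09 (SE 0.43) passed the test (limma adjusted p = 0.00715), and 0.658% of tested genes had a lower log2 change. With a single PBS library left in the fit the call ended, at an adjusted p of 0.0513 without PBS 1 and 0.0638 without PBS 2, while the change itself stayed between -3.67 and -2.52 whichever library was left out.

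Fibrillin-1 did not follow elastin. Fbn1 (gene ID 83727), whose mutation causes Marfan syndrome in humans, stood at 105 TPM in AdMSC 1 and 77.3 TPM in SyMSC 1, against 112 TPM in PBS 1 and 92.8 TPM in PBS 2. The libraries of the arms overlapped, with AdMSC 1 between the PBS values. The log2 change was -0.17 (SE 0.19, limma adjusted p = 0.468), with means of 91.1 ± 19.6 TPM after injection and 102 ± 13.3 TPM with PBS (SD, n = 2 each). The estimate was 0.05 without SyMSC 1 and -0.39 without AdMSC 1. Elastin messages were fewer than fibrillin-1 messages in the injected libraries and more numerous in the PBS libraries: the ratio of Eln to Fbn1 TPM was 0.839 in AdMSC 1 and 0.506 in SyMSC 1, against 4.13 in PBS 1 and 6.07 in PBS 2.

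The microfibril-associated glycoproteins fell together, to unequal extents. Mfap2 (gene ID 313662) encodes MAGP-1, a small glycoprotein that binds fibrillin and tropoelastin. It was at 46.1 TPM in AdMSC 1 and 25.5 TPM in SyMSC 1, against 518 TPM in PBS 1 and 619 TPM in PBS 2. This was the largest log2 change of the 10 genes, -4.00 (SE 0.29, limma adjusted p = 0.000742), and 0.127% of tested genes had a lower one. The means were 35.8 ± 14.6 TPM after injection and 569 ± 71.1 TPM with PBS (SD, n = 2 each), a ratio of 0.063. The call held with any library left out, at adjusted p between 0.000552 and 0.00426.

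Mfap5 (gene ID 362429) encodes MAGP-2, the close relative of MAGP-1, and is known as a marker of adventitial fibroblasts. It was at 128 TPM in AdMSC 1 and 59.7 TPM in SyMSC 1, against 341 TPM in PBS 1 and 373 TPM in PBS 2. The injected libraries again lay below both PBS libraries, but the gap was smaller than for Mfap2, with a log2 change of -2.02 (SE 0.38, limma adjusted p = 0.0146). The call ended without PBS 1 (limma adjusted p = 0.0823) or PBS 2 (limma adjusted p = 0.0941). The balance of these relatives was turned round: the ratio of Mfap2 to Mfap5 TPM was 0.362 in AdMSC 1 and 0.428 in SyMSC 1, against 1.52 in PBS 1 and 1.66 in PBS 2.

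Mfap4 (gene ID 287382), a fibrinogen-related protein that binds tropoelastin and fibrillin and is abundant in vessel walls, was the most abundant of the 10 genes in every library. It was at 358 TPM in AdMSC 1 and 140.4 TPM in SyMSC 1, against 3079.8 TPM in PBS 1 and 2872 TPM in PBS 2. The injected libraries lay apart and the PBS libraries close together, with AdMSC 1 at 2.54 times SyMSC 1 on the TPM + 1 scale. Its log2 change was -3.72 (SE 0.50, limma adjusted p = 0.00871), with means of 249 ± 154 TPM after injection and 2976 ± 147 TPM with PBS (SD, n = 2 each). The call ended without PBS 1 (limma adjusted p = 0.088) or PBS 2 (limma adjusted p = 0.0876), and the change was -3.05 without SyMSC 1 and -4.40 without AdMSC 1.

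Promoter sequence was at hand in RefSeq's GRCr8 table for 6 of the 10 genes (Fbn1, Fbln2, Mfap5, Mfap2, Fbln5 and Loxl1), as 250 bases before to 50 bases after the annotated start. The windows of Mfap2, which fell most, and Fbn1, which did not pass, are shown to set side by side 2 microfibril genes with different changes; both were picked after their values were seen. Mfap2 lies on chromosome 5, plus strand (chr5:158597478-158597777), and Fbn1 on chromosome 3, minus strand (chr3:133203341-133203640). Each is written 5′ to 3′ on the gene's strand, and capitals mark GGGCGG, the GC box letters, on either strand.
Mfap2: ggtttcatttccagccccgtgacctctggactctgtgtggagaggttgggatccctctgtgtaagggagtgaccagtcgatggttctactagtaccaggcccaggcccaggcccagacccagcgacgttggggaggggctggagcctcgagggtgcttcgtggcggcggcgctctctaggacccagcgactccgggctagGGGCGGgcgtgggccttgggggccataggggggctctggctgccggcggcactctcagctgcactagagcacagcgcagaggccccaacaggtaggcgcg
Fbn1: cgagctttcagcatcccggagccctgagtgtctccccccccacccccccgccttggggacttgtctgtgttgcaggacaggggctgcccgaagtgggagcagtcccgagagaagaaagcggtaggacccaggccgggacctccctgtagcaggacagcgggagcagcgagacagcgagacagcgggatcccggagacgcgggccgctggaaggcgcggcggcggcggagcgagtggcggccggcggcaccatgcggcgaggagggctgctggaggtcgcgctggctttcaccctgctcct
The Mfap2 window holds GGGCGG 1 time and the Fbn1 window 0 times, and both are rich in G and C (67.0% and 70.7%). Among the other windows, Fbln2 holds it 3 times and Fbln5 1 time, while Mfap5 and Loxl1 lack these letters. Thus 3 of 6 windows held it, of which Mfap2 and Fbln5 belong to genes that fell and Fbln2 to a gene that did not pass, and 33.1% of all 33469 RefSeq promoter windows of the same length do. The letters CAGAC, found in SMAD-binding sites, occurred in 5 of 6 windows and in 50.1% of all windows. The TATA box letters TATAAA occurred in 0 of 6 windows and in 14.2% of all. The letters ACGTG, core of hypoxia response sites, occurred in 0 of 6 windows and in 19.3% of all, and the AP-1 letters TGANTCA in 0 of 6 and in 7.33% of all. Every motif was searched on both strands, and matches of different motifs overlapped 0 times in the 6 windows.

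The fibulins split by member. Fbln5 (gene ID 29158), which tethers tropoelastin to microfibrils and cells and without which mice form disorganised elastic fibres, was at 27.4 TPM in AdMSC 1 and 18.2 TPM in SyMSC 1, against 95.9 TPM in PBS 1 and 124 TPM in PBS 2. The arms were well separated, and the log2 change was -2.24 (SE 0.23, limma adjusted p = 0.00103), called with any library left out. The means were 22.8 ± 6.50 TPM after injection and 110.1 ± 20.1 TPM with PBS (SD, n = 2 each).

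Fbln1 (gene ID 315191), a fibulin found in the elastin core and in basement membranes, was at 43.6 TPM in AdMSC 1 and 42.4 TPM in SyMSC 1, against 60.1 TPM in PBS 1 and 50.7 TPM in PBS 2. Its arms did not overlap, but the shift was small and did not pass (log2 change -0.35, SE 0.14, limma adjusted p = 0.074); under upper quartile scaling it did (limma adjusted p = 0.0414). Fbln2 (gene ID 282583), which binds fibrillin-1 and versican, was at 126 TPM in AdMSC 1 and 61.3 TPM in SyMSC 1, against 133 TPM in PBS 1 and 133 TPM in PBS 2. AdMSC 1 was close to the PBS libraries and SyMSC 1 far below them, so that the joined log2 change of -0.59 (SE 0.36) did not pass (limma adjusted p = 0.233). Without AdMSC 1 it passed at -1.10 (limma adjusted p = 0.00359), and without SyMSC 1 it was -0.08. The ratio of Fbln5 to Fbln1 TPM was 0.629 in AdMSC 1 and 0.430 in SyMSC 1, against 1.60 in PBS 1 and 2.45 in PBS 2.

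The cross-linking enzymes also divided. Loxl1 (gene ID 315714), the lysyl oxidase relative that mice need to renew elastic fibres, was at 92.0 TPM in AdMSC 1 and 72.5 TPM in SyMSC 1, against 238 TPM in PBS 1 and 237 TPM in PBS 2. Both injected libraries were well below the PBS libraries, which were nearly equal, with a log2 change of -1.53 (SE 0.15, limma adjusted p = 0.000846) that was called with any library left out. Lox (gene ID 24914), which cross-links collagen as well as elastin, was at 115 TPM in AdMSC 1 and 89.1 TPM in SyMSC 1, against 112 TPM in PBS 1 and 81.9 TPM in PBS 2. The libraries interleaved, and the spread within each arm was larger than the difference between arms (102 ± 18.6 TPM after injection and 96.9 ± 21.3 TPM with PBS, SD, n = 2 each). Its log2 change was 0.08 (SE 0.20, limma adjusted p = 0.759), from -0.14 without PBS 2 to 0.31 without PBS 1. Lox exceeded Loxl1 in the injected libraries but not in the PBS libraries, at a ratio of 1.25 in AdMSC 1 and 1.23 in SyMSC 1, against 0.471 in PBS 1 and 0.345 in PBS 2.

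**Figure D2:**
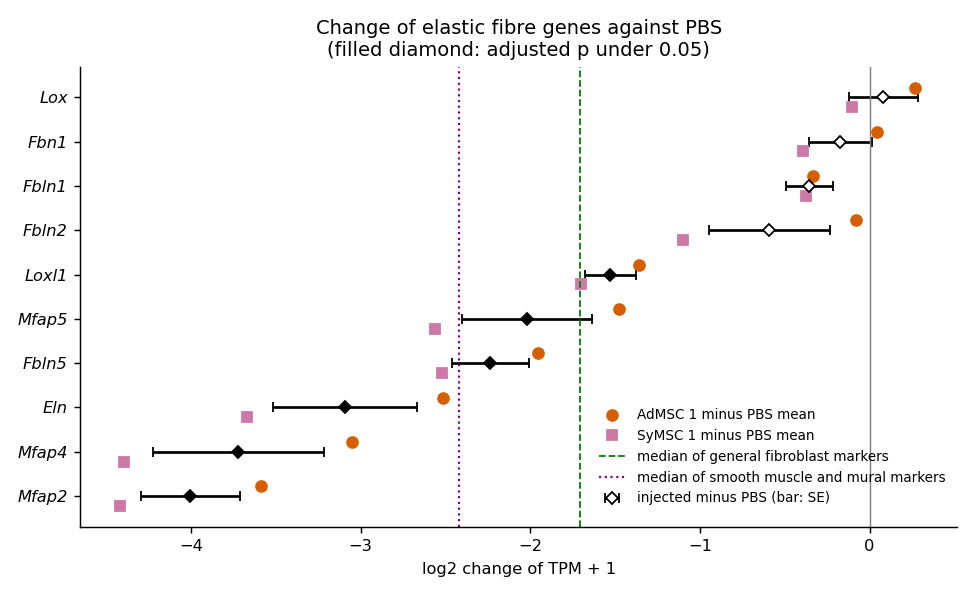
Log2 change of TPM + 1 against PBS for each elastic fibre gene: diamonds are the joined injected libraries with their SE (filled where adjusted p was under 0.05), circles AdMSC 1 and squares SyMSC 1 against the mean of the PBS libraries, and vertical lines the medians of 2 marker lists. Changes range from -4.00 for Mfap2 to 0.08 for Lox, and the SyMSC 1 square lies left of the AdMSC 1 circle for every gene.

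The order of levels within the set differed between the arms. After injection it ran, by mean TPM, Mfap4 (249), Lox (102), Mfap5 (93.6), Fbln2 (93.5), Fbn1 (91.1), Loxl1 (82.3), Eln (63.6), Fbln1 (43.0), Mfap2 (35.8) and Fbln5 (22.8). Mfap4 lay clear of the rest, and from Lox downwards each gene's range overlapped that of the next. In the PBS libraries the order was Mfap4 (2976), Mfap2 (569), Eln (512), Mfap5 (357), Loxl1 (238), Fbln2 (133), Fbln5 (110.1), Fbn1 (102), Lox (96.9) and Fbln1 (55.4). Here the ranges of Mfap2 and Eln overlapped, as did those of Fbln5, Fbn1 and Lox. Mfap2 ranked 8th and 9th in AdMSC 1 and SyMSC 1 and was second in both PBS libraries.

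As shares of the summed TPM of the 10 genes, Mfap4 made up 31.7% in AdMSC 1 and 22.4% in SyMSC 1, against 59.8% in PBS 1 and 55.8% in PBS 2. The share of Eln was lower, at 7.80% and 6.26% in AdMSC 1 and SyMSC 1, against 8.94% and 10.9% in PBS 1 and PBS 2. The share of Lox was 10.2% and 14.2% in AdMSC 1 and SyMSC 1, against 2.17% and 1.59% in PBS 1 and PBS 2. Fbn1 held 9.30% and 12.4% in AdMSC 1 and SyMSC 1, against 2.17% and 1.80% in PBS 1 and PBS 2. Messages of Fbn1 and Lox thus took a larger part of a smaller total, and the ratio of Lox to Eln TPM was 1.31 in AdMSC 1 and 2.28 in SyMSC 1, against 0.243 in PBS 1 and 0.145 in PBS 2.

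**Figure D3:**
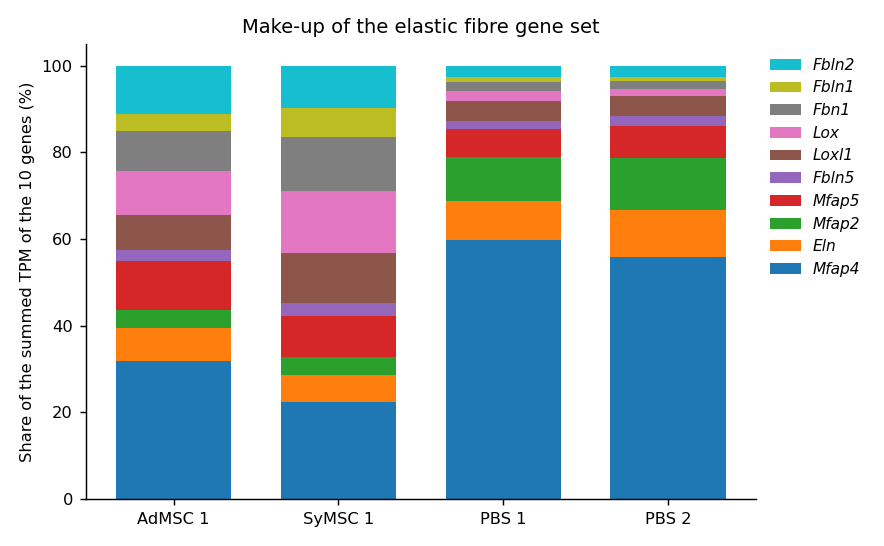
Stacked bars give the share of each gene in the summed TPM of the 10 elastic fibre genes, in percent, for the 4 libraries. Mfap4 fills 31.7% and 22.4% of the bar in AdMSC 1 and SyMSC 1 and 59.8% and 55.8% in PBS 1 and PBS 2, and the shares of Eln and Mfap2 are also smaller in the injected bars; the other 7 genes, Loxl1, Mfap5 and Fbln5 among them, fill more of both injected bars than of either PBS bar.

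By cell source, each injected library was first set against both PBS libraries, in a fit with 3 groups in which the lone injected library is assumed to vary like the PBS pair. Against PBS, 6 of the 10 genes were called lower in AdMSC 1 (background 34.4% called, 16.5% lower) and 7 in SyMSC 1 (background 40.2% called, 22% lower). These comparisons share the PBS libraries. The genes called in AdMSC 1 were those called in the joined comparison, and in SyMSC 1 Fbln2 was called as well (log2 change -1.10, limma adjusted p = 0.00364), against -0.08 in AdMSC 1 (limma adjusted p = 0.667). The SE of 0.13 of both values rests on the PBS pair, which differed by 0.0024 on the log2 scale for Fbln2, and the difference between the sources did not pass in the same fit (limma adjusted p = 0.376). For Eln the log2 change was -2.52 in AdMSC 1 and -3.67 in SyMSC 1, for Mfap4 -3.05 and -4.40, and for Mfap2 -3.59 and -4.42. With no filter on low values this fit called 0 genes of 17889 in either comparison, the 10 included, although 6 and 7 of the 10 kept an unadjusted p under 0.05, as did 5816 and 6285 genes over all; the lowest adjusted p was then 0.0883 and 0.0691.

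SyMSC 1 was then set directly against AdMSC 1, which is 1 library against 1 and has no replicate check. All 10 genes were lower in SyMSC 1, as were 65.4% of tested genes. Listed as at least 2 times lower on the TPM + 1 scale, with the higher value at least 5 TPM, were 4 of the 10: Mfap4, Eln, Mfap5 and Fbln2. Of all tested genes 0.546% were listed as lower and 1.65% in either direction. The log2 ratio was -1.34 for Mfap4, -1.15 for Eln, -1.08 for Mfap5 and -1.02 for Fbln2, and the median over the 10 genes was -0.70, against -0.09 over all tested genes. Fbln1 differed least (-0.04). The PBS libraries, set against each other in the same way (PBS 2 over PBS 1), differed by at most 0.45 in either direction among the 10, for Lox, with PBS 2 above PBS 1 in 4 of them. Under median-ratio (RLE) scaling Mfap5 (1.99 times lower) and Fbln2 (1.91 times lower) missed the ratio of 2, leaving 2 genes listed, and Fbln1 stood slightly above 0 (0.05). In the 3-group fit, which takes its spread from the PBS pair, 0 of 13371 genes passed between the sources, with 861 genes (6.44%) at an unadjusted p under 0.05, among them Eln, Mfap2, Mfap4, Mfap5 and Fbln2 (lowest limma adjusted p among the 10 = 0.376).

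**Figure D4:**
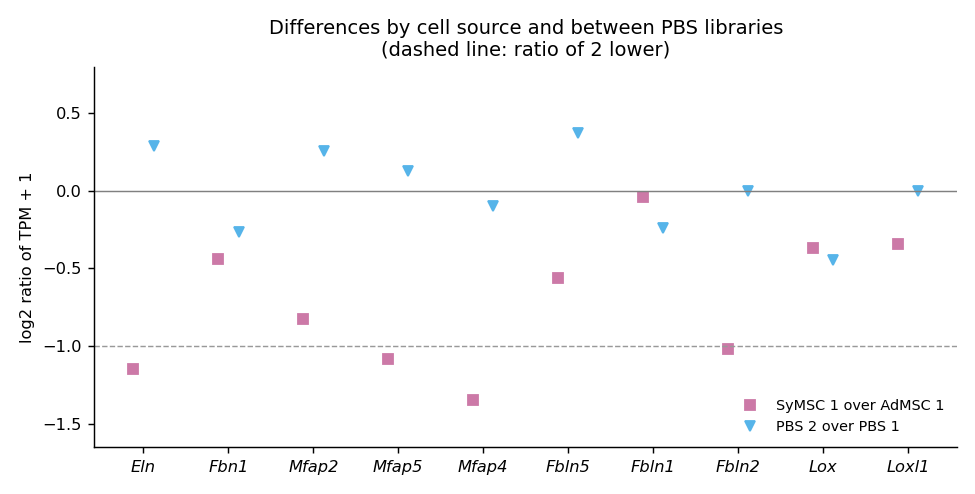
Log2 ratio of TPM + 1 for each elastic fibre gene, SyMSC 1 over AdMSC 1 (squares) and PBS 2 over PBS 1 (triangles), with a dashed line at a ratio of 2 lower. The squares lie below 0 for all 10 genes, from -1.34 for Mfap4 to -0.04 for Fbln1, while the triangles lie between -0.45 and 0.37.

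Markers of general fibroblasts and of smooth muscle and mural cells moved the same way as the genes that fell. Those of adventitial fibroblasts did not as a list: 1 of 4 tested fell and 3 did not pass, with a median of 0.10. Over all tested genes 24.7% were called lower. All 10 general fibroblast markers fell, with a median log2 change of -1.71 and a summed level of 12894 and 9167 TPM in AdMSC 1 and SyMSC 1, against 36239 and 28927 TPM in PBS 1 and PBS 2. All 7 smooth muscle and mural markers fell (median -2.42), with a summed level of 778 and 611 TPM in AdMSC 1 and SyMSC 1, against 2973 and 3894 TPM in PBS 1 and PBS 2. Mfap2, Mfap4 and Eln lay below both medians, by -2.30, -2.02 and -1.39 from the fibroblast one, while Lox, Fbn1, Fbln1 and Fbln2 lay above the fibroblast median by 1.79, 1.53, 1.35 and 1.11. Loxl1, Mfap5 and Fbln5 lay within 0.54 of it. Between the sources, all 10 fibroblast markers were lower in SyMSC 1 than in AdMSC 1 (median log2 ratio -0.50), as were 5 of 7 smooth muscle markers (median -0.19). Of all tested genes 65.4% were lower in SyMSC 1, with a median of -0.09. Of 6 endothelial markers 5 fell and 1 did not pass (median -1.56, summed level 240 and 196 TPM in AdMSC 1 and SyMSC 1, against 577 and 641 TPM in PBS 1 and PBS 2). Of 5 lining fibroblast markers 4 fell, and Prg4 did not pass (-0.26, limma adjusted p = 0.438). Prg4 lay above both PBS libraries in AdMSC 1 and below both in SyMSC 1, where the 3-group fit called it lower (-0.65, limma adjusted p = 0.0305). What part these cell types have in the changes of the elastic fibre genes was not tested.

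**Figure D5:**
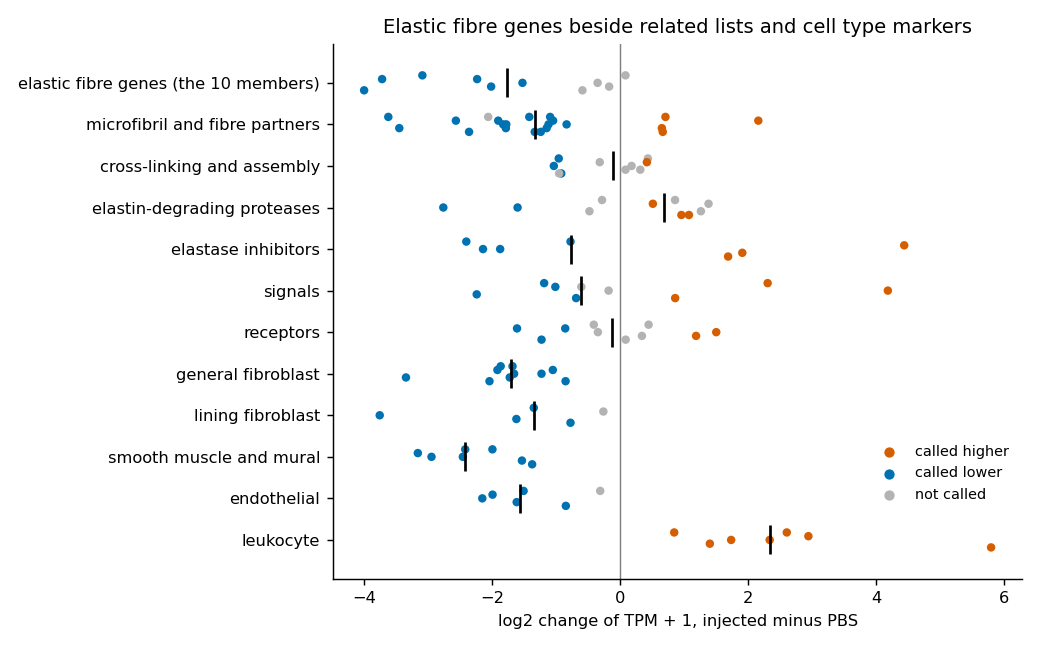
Log2 change of TPM + 1, injected minus PBS, for each tested gene of the elastic fibre set, of 6 related lists and of 5 marker lists; black bars are list medians and colours show the limma call. The 10 elastic fibre genes reach from -4.00 to 0.08, general fibroblast markers from -3.35 to -0.85, and leukocyte markers lie above 0.

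The tested genes outside the set with the pattern most like that of a member were found by the Euclidean distance between centred log2(TPM + 1) profiles over the 4 libraries, among 10213 genes with a mean of at least 5 TPM. Nearest to Eln were LOC102552895 (distance 0.222), which RefSeq's GRCr8 table names Podn, LOC108348074 (0.257) and Abi3bp (0.283). Abi3bp, a matrix protein gene, stood at 33.8 TPM in AdMSC 1 and 16.0 TPM in SyMSC 1, against 221 TPM in PBS 1 and 208 TPM in PBS 2. Nearest to Fbn1 were Tlr3 (0.0447), Ywhaq (0.0633) and Ssr3 (0.0641), and nearest to Lox were Adi1 (0.0521), Arcn1 (0.0633) and Eif1ax (0.0635), all genes that did not pass. Within the set, Fbn1 and Lox were the closest pair (0.290), then Fbn1 and Fbln1 (0.336) and Mfap5 and Fbln5 (0.460); Mfap2 and Lox were the farthest apart (4.13).

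Most genes of a wider list, drawn up as partners of the microfibril and the elastic fibre, also went down. The list takes in Mmrn1, Mmrn2 (-1.91) and Hmcn1 (-1.24), which all fell and whose place in elastic fibres was not tested. Of 21 partner genes 16 fell, 4 rose and 1 did not pass, with a median log2 change of -1.34. The shares over all tested genes were 24.7% lower and 23.7% higher. Fbln7 (-3.63, limma adjusted p = 0.000161) was at 10.3 and 8.28 TPM in AdMSC 1 and SyMSC 1, against 124 and 126 TPM in PBS 1 and PBS 2. Emilin3 (-3.45), Adamtsl4 (-2.57), which encodes a fibrillin-binding protein, and Mmrn1 (-2.36) had the next largest falls, followed further down by Ltbp4 (-1.78), the latent TGF-beta binding protein that aids elastin assembly, and Efemp2 (-0.84), which encodes fibulin-4 and recruits lysyl oxidase. The second fibrillin gene Fbn2, mostly embryonic, was low everywhere, at 0.65 and 0.18 TPM in AdMSC 1 and SyMSC 1, against 2.92 and 1.35 TPM in PBS 1 and PBS 2 (-1.12, limma adjusted p = 0.0251); the call ended without SyMSC 1 (0.13) or PBS 1 (0.0663) and with no filter (0.0584). Efemp1, encoding fibulin-3, stood at -2.06 and did not pass (limma adjusted p = 0.0638), but passed under 6 of the 10 alternatives. The 4 that rose were Emilin2 (2.16), Vcan (0.71), Emilin1 (0.66) and Ltbp2 (0.65); all but Emilin1 are named here because their values had been seen. Vcan encodes versican, a proteoglycan that binds fibrillin-1 and hyaluronan, at 183 and 200.4 TPM in AdMSC 1 and SyMSC 1, against 123 and 111 TPM in PBS 1 and PBS 2. The rise of Ltbp2 was lost without AdMSC 1 (limma adjusted p = 0.12), PBS 1 (0.102) or PBS 2 (0.102), with no filter (0.0791) and with plain eBayes (0.0561).

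Among 10 genes of cross-linking and assembly, 3 fell, 1 rose and 6 did not pass, with a median of -0.12. Over all tested genes 24.7% were called lower and 23.7% higher. Bmp1 (-1.04), the protease that activates pro-lysyl oxidase, Loxl3 (-0.96) and Fkbp10 (-0.92), a tropoelastin chaperone, fell. Tgm2, a transglutaminase, rose by 0.42 (limma adjusted p = 0.0452), a call that was lost with any library left out, with no filter, under upper quartile scaling and with plain eBayes. Loxl2, like Lox, did not pass (0.31, limma adjusted p = 0.153), with 66.3 and 58.2 TPM in AdMSC 1 and SyMSC 1, against 56.2 and 44.1 TPM in PBS 1 and PBS 2. Fn1, the fibronectin on which microfibrils assemble, stood at -0.32 and did not pass.

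Of the 11 genes for elastin-degrading proteases 10 were tested: 3 rose, 2 fell and 5 did not pass, with a median of 0.68. Over all tested genes 23.7% were called higher and 24.7% lower. The cysteine protease gene Ctsk fell (-2.77), with 95.8 and 60.2 TPM in AdMSC 1 and SyMSC 1, against 572 and 477 TPM in PBS 1 and PBS 2. The gelatinase gene Mmp2 fell as well, with 770.2 and 611 TPM in AdMSC 1 and SyMSC 1, against 2261 and 1931 TPM in PBS 1 and PBS 2 (limma adjusted p = 0.000929). Ctsl (0.96), Ctss (0.51) and Mmp7 (1.07) rose; Mmp7 was lost without SyMSC 1 (limma adjusted p = 0.0519) and Ctss without AdMSC 1 (0.057), SyMSC 1 (0.0789) or PBS 1 (0.124). The macrophage elastase gene Mmp12 varied within both arms, at 45.6 and 18.3 TPM in AdMSC 1 and SyMSC 1, against 23.7 and 10.1 TPM in PBS 1 and PBS 2 (0.86, limma adjusted p = 0.358). Elane, the neutrophil elastase gene, was at 8.31 and 21.3 TPM in AdMSC 1 and SyMSC 1, against 11.6 and 1.88 TPM in PBS 1 and PBS 2 (1.26, limma adjusted p = 0.374), and was not called.

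The inhibitors of these proteases moved both ways, with 3 of 7 tested genes higher and 4 lower (median -0.78). Over all tested genes 23.7% were called higher and 24.7% lower. Slpi, a secreted inhibitor of neutrophil elastase, rose by 4.44, to 731 and 1338 TPM in AdMSC 1 and SyMSC 1, against 37.4 and 53.3 TPM in PBS 1 and PBS 2 (SE 0.35, limma adjusted p = 0.0012). Timp1 rose by 1.91, to 3905 and 4155 TPM in AdMSC 1 and SyMSC 1, against 1159 and 993 TPM in PBS 1 and PBS 2. Cst3, the cystatin C gene, fell by 2.41 on the log2 scale and Timp3, a matrix-bound metalloproteinase inhibitor, fell by 2.15.

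Of 9 tested genes for signals that act on elastin synthesis, 3 rose, 4 fell and 2 did not pass (median -0.61). Over all tested genes 23.7% were called higher and 24.7% lower. Tgfb3 (-2.24) and Igf1 (-1.19), a growth factor that raises elastin synthesis, fell, while Tgfbr1 (2.30) rose. Tgfb1 also rose (0.86, limma adjusted p = 0.00263), with 246.8 and 226.4 TPM in AdMSC 1 and SyMSC 1, against 131 and 128.9 TPM in PBS 1 and PBS 2. Tgfb2 (-1.01) and Tgfbr3 (-0.69) fell. Il1b, a cytokine gene, rose by 4.18 (limma adjusted p = 0.0144), a call lost without PBS 1 or PBS 2. Of 10 tested receptor genes 2 rose, 3 fell and 5 did not pass (median -0.13), close to the shares over all tested genes. Among them Neu1 (1.19), the sialidase of the elastin receptor complex, and Itgb3, with 5.98 and 10.9 TPM in AdMSC 1 and SyMSC 1, against 2.68 and 1.83 TPM in PBS 1 and PBS 2, rose, and Itga8 (-1.61) and Itgb5 (-1.23), integrin chains that bind matrix proteins, fell. Glb1 (-0.35, limma adjusted p = 0.0532) and Ctsa (0.44, limma adjusted p = 0.0517), the other genes of the elastin receptor complex in the list, did not pass.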

How the data were processed

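Messenger RNA of 4 synovium libraries was measured (1 AdMSC, 1 SyMSC, 2 PBS), poly-A selected and sequenced on a BGISEQ-500, per the labels' protocols. Per the file headers the authors deposited TPM, over 17899 rat genes, each library summing to a fixed total; HISAT2 2.0.4 and the build Rnor_6.0 are named in the submitters' processing notes, with no role stated. Nothing used here states the counting tool, the annotation or the use of strand, and depth is unknown.

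The design foresaw counts or TPM; the TPM route was taken. Log2(TPM + 1) of the 13371 genes that reached 1 TPM in 2 or more libraries was fitted with limma 3.58.1 in R 4.3.3 (eBayes, trend and robust), as 2 arms (2 residual degrees of freedom) and as 3 groups (1). Adjusted p-values are over all tested genes; the test was tried on simulated data. The members, the 6 pathway lists and the 11 marker lists (129 of 130 entries found) were chosen with earlier results of these data known. Named were all members, up to 4 called genes with the largest change per pathway list, and Fbn2, Efemp1, Efemp2, Ltbp4, Emilin1, Loxl2, Loxl3, Mmp12, Elane and Timp1; Prg4, Fn1 and any others were chosen after their values were seen. Alternatives were other pseudocounts, filters, scalings, eBayes options, a block and each library left out. RefSeq tables (GRCr8) gave promoters and names (16718 of 17899 IDs matched); no coordinates of Rnor_6.0 are given.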

Additional observations from a re-analysis of the deposited data

Results flagged for a closer look

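None of the 10 elastic fibre genes met a rule for a closer look: no arm had enough libraries to test for a library that stands apart, and none of the 10 lay above both PBS libraries with cells of one source and below both with the other. Of the related genes 3 did, and of the marker genes another 3. Tll1, a protease related to Bmp1, was at 6.27 TPM in AdMSC 1 and 5.01 TPM in SyMSC 1, against 5.05 and 5.44 TPM in PBS 1 and PBS 2 (SyMSC minus AdMSC log2 difference -0.27, 3-group limma adjusted p = 0.891). Itga5, a fibronectin receptor chain, was at 109.7 TPM in AdMSC 1 and 89.4 TPM in SyMSC 1, against 97.0 and 89.9 TPM in PBS 1 and PBS 2 (difference -0.29, 3-group limma adjusted p = 0.837). Tnf was listed at 0 TPM in AdMSC 1 and at 2.52 TPM in SyMSC 1, against 1.40 and 2.41 TPM in PBS 1 and PBS 2 (difference 1.82, 3-group limma adjusted p = 0.498). Among the markers, the lining gene Prg4 was at 4192 TPM in AdMSC 1 and 2448 TPM in SyMSC 1, against 3930 and 3765 TPM in PBS 1 and PBS 2 (difference -0.78, 3-group limma adjusted p = 0.572). The adventitial marker Dpp4 was at 4.74 TPM in AdMSC 1 and 1.90 TPM in SyMSC 1, against 2.63 and 2.83 TPM in PBS 1 and PBS 2 (difference -0.98, 3-group limma adjusted p = 0.624). Sema3c, another adventitial marker, was at 36.8 TPM in AdMSC 1 and 22.6 TPM in SyMSC 1, against 27.6 and 22.7 TPM in PBS 1 and PBS 2 (difference -0.68, 3-group limma adjusted p = 0.699). None of these 6 differences passed the test.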

How the results depend on the processing

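The count of 6 elastic fibre genes called lower was 6 or 7 under other pseudocounts, filters, scalings and eBayes options, and between 3 and 7 with 1 library left out, the 3 being Mfap2, Fbln5 and Loxl1 without PBS 1 and again without PBS 2. Of 100 recomputed values of single members, 89 kept direction and side of the threshold, 6 lost and 2 gained their call, and 3 uncalled values changed sign (Fbn1 0.05 without SyMSC 1; Lox -0.10 without AdMSC 1 and -0.14 without PBS 2). With no filter, the 3-group fit called 0 of the 10 genes in AdMSC 1 and 0 in SyMSC 1, where 17889 genes were tested. Between sources, 2 genes were listed under RLE scaling and 0 were called by the 3-group fit. With the title word as a replicate block 6 members and 6590 genes were called (6476 without it); same-titled libraries deviated together with r = 0.117 across 13371 genes, and the labels do not say that titles mark pairs. The block called Mmp12 (limma adjusted p = 0.00845), Postn, Itgb1, Glb1 and Ctsa, which did not pass without it. The causes of these changes were not tested. TPM holds no depth, so the precision of low values is unknown.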

Other observations

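Mfap5 is known as a marker of adventitial fibroblasts. Of 4 tested further markers of these cells only Cd34, which endothelial cells share, fell in the joined comparison (-2.19), and the list's median log2 change was 0.10. By source the median against PBS was 0.31 in AdMSC 1 and -0.25 in SyMSC 1. All 4 were lower in SyMSC 1 than in AdMSC 1 (median log2 ratio -0.69, 1 library against 1), as was Mfap5 (-1.08). Of all tested genes 65.4% were lower in SyMSC 1 than in AdMSC 1. Pi16 stood at 62.1 TPM in AdMSC 1 and 61.6 TPM in SyMSC 1, against 48.7 and 71.3 TPM in PBS 1 and PBS 2, and Sema3c at 36.8 and 22.6 TPM in AdMSC 1 and SyMSC 1, against 27.6 and 22.7 TPM in PBS 1 and PBS 2; neither passed, nor did Dpp4.

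Markers of tissues next to the synovium, and of red blood cells, stood at unlike levels in the 4 libraries. Summed skeletal muscle markers were at 112 and 156 TPM in AdMSC 1 and SyMSC 1, against 1692 and 584 TPM in PBS 1 and PBS 2 (2 of 5 lower, 3 not called). Tendon markers were at 5.95 and 4.33 TPM in AdMSC 1 and SyMSC 1, against 136 and 74.2 TPM in PBS 1 and PBS 2 (2 of 2 tested lower), and cartilage markers at 18.1 and 10.3 TPM in AdMSC 1 and SyMSC 1, against 54.3 and 29.5 TPM in PBS 1 and PBS 2 (1 of 2 tested lower). The share called lower over all tested genes was 24.7%, and these lists are short. Adipocyte markers were at 41.4 and 54.9 TPM in AdMSC 1 and SyMSC 1, against 53.0 and 269.7 TPM in PBS 1 and PBS 2 (0 of 3 tested called by limma, and 0 at an unadjusted p under 0.05). Erythroid markers were at 5306 and 11218 TPM in AdMSC 1 and SyMSC 1, against 21673 and 7662 TPM in PBS 1 and PBS 2 (0 of 3 called by limma, and 0 at an unadjusted p under 0.05). The part of these tissues and of blood in the elastic fibre values was not tested.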
